A study of Mus musculus with 19 samples.

Results

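The endocannabinoid receptor CB1 and the main enzymes that make and break down its ligands were followed in Fmr1 KO and WT mouse hippocampal slices. The genes were chosen by name as Cnr1, Dagla, Daglb, Mgll, Napepld and Faah, and all 6 were found among the 14459 genes measured. Fmr1 KO slices lack FMRP, an RNA-binding protein that associates with ribosomes and many neuronal mRNAs and is lost in fragile X syndrome; the WT slices came from littermates. All mice were male, of the C57BL/6 background and 28 to 35 days old. A biological replicate pooled 8 to 10 slices (400 µm thick) of 6 to 8 mice. Slices recovered for 3 to 4 h at 30 °C before cycloheximide (100 µg/ml), which holds ribosomes on the mRNA, was added. No cell type was sorted, so a value cannot be assigned to one. The protocol removed CA3 to enrich CA1, while the source label also names cortex, and the tissue is called hippocampal slices here.

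In each replicate, ribosome-protected mRNA fragments (footprints) and cytoplasmic RNA were sequenced from the same lysate. Footprints count ribosomes on an mRNA, RNA-seq counts the mRNA itself, and the footprint level divided by the RNA level is called translational efficiency (TE). Each assay had 3 KO and 4 WT libraries, and means are given ± SD with n = 3 for KO and n = 4 for WT throughout. Levels are in TPM, the share of a library's reads per gene length scaled to a fixed total. Depth was 16.1 to 19.2 M estimated counts in KO footprints and 15.6 to 22.7 M in WT footprints, and 6.36 to 9.96 M in KO RNA and 4.97 to 6.76 M in WT RNA.

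Endocannabinoids are lipids made on demand, often in the postsynaptic neuron, that act backwards across the synapse. Diacylglycerol lipases (Dagla and Daglb) release 2-arachidonoylglycerol (2-AG) from diacylglycerol, which phospholipase C supplies after Gq-coupled receptors such as mGluR5 are stimulated. The lipid binds CB1 (Cnr1) on axon terminals, where the receptor lowers transmitter release through Gi/o proteins. In the hippocampus CB1 is densest on terminals of cholecystokinin (CCK) interneurons and sparser on glutamatergic terminals. Monoacylglycerol lipase (Mgll) ends most 2-AG signalling, partly in the terminal and partly in astrocytes. Anandamide and related N-acylethanolamines form a second branch, made in part by Napepld and hydrolysed by Faah.

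In the KO, footprints of the receptor were lower and footprints of the 2-AG hydrolase were higher, and the other 4 genes did not pass the test. Cnr1 fell by 0.15 ± 0.04 (log2 fold change, KO over WT, ± SE), a change of -10.1%, and Mgll rose by 0.12 ± 0.04, a change of 8.85%. Of the 6 genes, 1 was higher and 1 was lower at an adjusted p under 0.05 (edgeR's quasi-likelihood test, Benjamini-Hochberg adjustment over all genes), while 8.15% of the 14438 genes tested were higher and 10.4% were lower. The background for either direction was 18.5%, and 2 calls among 6 genes are too few to set a share apart from it. In RNA 0 of the 6 passed edgeR, where 4.89% of 13877 genes did (2.11% higher, 2.77% lower), and 2 (Cnr1 and Dagla) had an unadjusted p under 0.05. DESeq2 and limma also called 0 in RNA, but DESeq2 gave no adjusted p for Napepld. In the test of TE 0 of the 6 passed edgeR, where 0.0346% of 14435 genes did (0.0139% higher, 0.0208% lower), and 0 had an unadjusted p under 0.05; DESeq2 and limma called 0. All KO libraries lay on one side of all WT libraries for 2 of the 6 genes in footprints, where 30.7% of all genes did so, and for 0 of the 6 in RNA, where 19.1% did (9.03% above, 10.0% below).

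**Figure D1:**
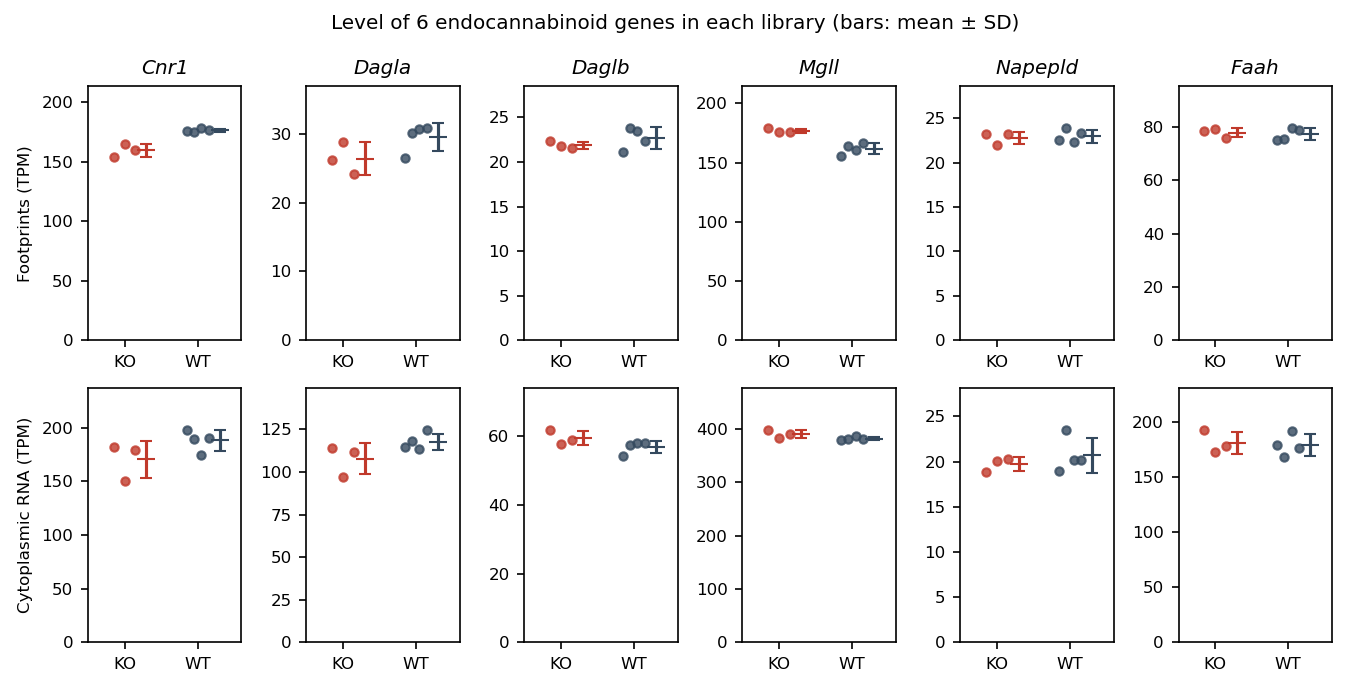
Level of the 6 genes in every library, in TPM, with footprints in the top row and cytoplasmic RNA in the bottom row, KO (red) left of WT (blue); bars are the mean and SD. For Cnr1 footprints all 3 KO libraries lie below the 4 WT libraries, and for Mgll footprints all 3 lie above.

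**Figure D2:**
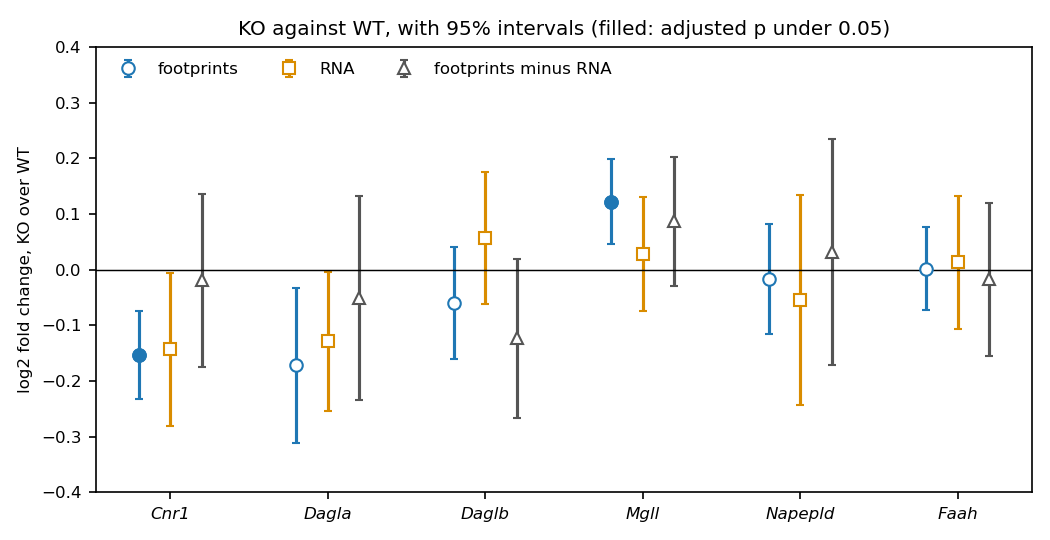
Log2 fold change, KO over WT, of the 6 genes in footprints (circles), RNA (squares) and footprints minus RNA (triangles), with 95% intervals from the edgeR fits. Filled symbols, which are the footprints of Cnr1 and Mgll, had an adjusted p under 0.05.

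Before these results are described gene by gene, a few facts hold for the whole tables. Fmr1 footprints were 4.81 ± 0.222 TPM in KO and 44.4 ± 1.53 TPM in WT, as the genotype labels require. Scaling put the median log2 fold change of all genes at -0.00015 in footprints and -0.005 in RNA, so changes are relative to the typical mRNA. The values have no zeros, no whole counts and a floor near 1 TPM, well below the 6 genes. Among library differences within groups, the contrast of replicates 1 and 2 with replicates 3 and 4 held 3.64% of the variance in footprints and 1.91% in RNA, against 17.6% to 33.4% and 20.4% to 29.3% for the other directions. The sources used here state no adjustment for it, and p-values may be too small. Markers of regions and other cells also differed in footprints, where 8.15% of all genes were higher and 10.4% lower. CA1 markers (1 of 6 higher, 2 lower) summed to 272 to 290 TPM in KO and 297 to 303 TPM in WT, CA3 markers to 153 to 156 TPM in KO and 163 to 170 TPM in WT, and thalamus markers, 4 of 6 of them higher, to 228 to 235 TPM in KO and 205 to 220 TPM in WT. Fibroblast and meningeal markers, 5 of 6 of them lower, summed to 234 to 243 TPM in KO and 298 to 335 TPM in WT, and 3 of 6 endothelial and mural markers were lower. The part of this in the results was not tested.

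Cnr1 (GRCm38 chr4:33923171-33948831) encodes CB1, a G protein-coupled receptor. Its footprints were 154, 164 and 160 TPM in the KO libraries, against 176, 175, 178 and 177 TPM in the WT libraries. The highest KO library was below the lowest WT library, a separation in that direction seen in 15.6% of all genes. The means were 159 ± 5.30 TPM in KO and 176 ± 1.37 TPM in WT, a log2 fold change of -0.15 (95% interval -0.23 to -0.07) with an edgeR adjusted p of 0.0126. WT libraries were tighter than KO libraries here.

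Cnr1 RNA was 182, 151 and 179 TPM in KO, against 197, 190, 175 and 191 TPM in WT. The groups overlapped, with KO replicate 2 lowest and WT replicate 1 highest. The RNA log2 fold change was -0.14 ± 0.06 (interval -0.28 to -0.01, edgeR adjusted p 0.224), and -0.06 (0.667) without KO replicate 2. The TE difference was -0.02 ± 0.07 (interval -0.17 to 0.14, adjusted p 0.975). It was -0.12 without the KO replicate 2 lysate and 0.05 without that of KO replicate 1, so its sign rested on single lysates.

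In the list of markers for CCK-type and other interneurons, most genes were also lower in KO footprints. Of its 10 genes, 6 passed edgeR as lower and 0 as higher, against 10.4% and 8.15% of all genes, with a median log2 fold change of -0.20. The 6 were Cck (-0.18), Cxcl14 (-0.25), Htr3a (-0.47), Pvalb (-0.21), Slc17a8 (-0.27) and Vip (-0.28). The rest of the list, Gad1, Gad2, Adarb2 and Sst, did not pass. The summed level of the list was 3550 to 3848 TPM in KO and 3836 to 4132 TPM in WT footprints, which overlapped. In RNA it was 2327 to 2534 TPM in KO and 2601 to 2899 TPM in WT. There 1 of the 10 was lower, against 2.77% of all genes. Fewer cells of a type and less RNA per cell cannot be told apart in such bulk samples, and the part of these cells in the Cnr1 result was not tested. General neuron markers, of which 0 of 6 passed in footprints, summed to 9820 to 9994 TPM in KO and 9923 to 10110 TPM in WT.

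Dagla (chr19:10245265-10304877) encodes the α form of diacylglycerol lipase, the main source of synaptic 2-AG in the adult brain. Its footprints were 26.2, 28.8 and 24.1 TPM in KO, against 26.5, 30.1, 30.7 and 30.8 TPM in WT. Replicates 1 and 3 of the KO lay below every WT library, and KO replicate 2 lay above WT replicate 1. The means of 26.4 ± 2.38 TPM in KO and 29.5 ± 2.02 TPM in WT gave a log2 fold change of -0.17 ± 0.06 (interval -0.31 to -0.03). This was larger in size than that of Cnr1 but had a wider spread, and the edgeR adjusted p was 0.0845. Of 17 alternatives 13 did not call it: leaving out 1 library gave -0.24 (adjusted p 0.0220) without KO replicate 2 and -0.22 (0.0253) without WT replicate 1, but -0.12 (0.273) without KO replicate 3 and 0.159 to 0.198 as adjusted p without any other. The remaining calls were by DESeq2 (0.0411) and with a minimum of 10 TPM (0.0268).

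Dagla RNA was 114, 97.3 and 112 TPM in KO and 115, 118, 114 and 124 TPM in WT. KO replicate 2, which had the most Dagla footprints of its group, had the least Dagla RNA. The RNA log2 fold change was -0.13 ± 0.06 (interval -0.25 to -0.004, adjusted p 0.230), and the TE difference was -0.05 ± 0.09 (adjusted p 0.923). Without KO replicate 2 the RNA value was -0.06 and the TE value -0.18, and without KO replicate 3 the TE value was 0.04.

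Daglb (chr5:143464484-143504442) encodes the β form, which is better known from microglia and macrophages. Its footprints were 22.3, 21.8 and 21.5 TPM in KO and 21.1, 23.8, 23.5 and 22.3 TPM in WT, with overlapping groups. The log2 fold change was -0.06 ± 0.05 in footprints (interval -0.16 to 0.04, adjusted p 0.442) and 0.06 ± 0.06 in RNA (adjusted p 0.636). Daglb RNA was 61.6, 57.6 and 58.8 TPM in KO and 54.2, 57.3, 58.0 and 57.9 TPM in WT. Microglial markers were lower in KO, 7 of 7 in footprints and 5 of 7 in RNA, where 10.4% and 2.77% of all genes were. Their summed footprint levels were 376 to 398 TPM in KO and 447 to 470 TPM in WT.

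Napepld (chr5:21662901-21701622) encodes the phospholipase D that releases N-acylethanolamines from membrane precursors. It had the lowest RNA level of the 6 genes. Its footprints were 23.2, 22.0 and 23.2 TPM in KO and 22.5, 23.8, 22.3 and 23.3 TPM in WT, and the KO values lay within the WT values apart from the lowest. The log2 fold change was -0.02 ± 0.05 in footprints (interval -0.12 to 0.08, adjusted p 0.901). In RNA, with 84 to 183 estimated counts per library, it was -0.05 ± 0.09 (interval -0.24 to 0.13, adjusted p 0.830), the widest interval of the 6.

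Mgll (chr6:88724412-88828360) encodes monoacylglycerol lipase. Its footprints were 179, 176 and 176 TPM in KO, against 156, 164, 160 and 167 TPM in WT. All KO libraries lay above all WT libraries, which 15.1% of all genes did. The means were 177 ± 1.69 TPM in KO and 162 ± 4.62 TPM in WT, a log2 fold change of 0.12 (interval 0.05 to 0.20) with an edgeR adjusted p of 0.0308. The call was lost without KO replicate 2 (0.0650), KO replicate 3 (0.0872), WT replicate 1 (0.0749) or WT replicate 3 (0.0740), and with the replicate contrast above as a covariate (0.0619), all at log2 fold changes within 0.11 to 0.14.

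Mgll RNA did not pass the test. It was 398, 383 and 391 TPM in KO, against 379, 382, 386 and 381 TPM in WT. The means of 390 ± 7.51 TPM in KO and 382 ± 2.98 TPM in WT gave a log2 fold change of 0.03 ± 0.05 (interval -0.07 to 0.13, adjusted p 0.821). The TE difference was 0.09 ± 0.06 (interval -0.03 to 0.20, adjusted p 0.618), so a difference between the footprint and RNA changes was not shown. Astrocyte markers, from cells that also hold Mgll, moved both ways in footprints, with 2 of 7 higher and 2 lower. Of all genes 8.15% were higher and 10.4% lower. The astrocyte markers summed to 4593 to 4795 TPM in KO and 4713 to 4992 TPM in WT.

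Faah (chr4:115996668-116018837) encodes fatty acid amide hydrolase, the main anandamide-degrading enzyme, found in many postsynaptic neurons. Its footprints were 78.5, 79.0 and 75.9 TPM in KO and 75.2, 75.4, 79.3 and 78.8 TPM in WT. Its RNA was 192, 172 and 179 TPM in KO and 179, 168, 192 and 177 TPM in WT. The groups covered nearly the same range in both assays. The footprint log2 fold change was 0.00 ± 0.03, and its interval of -0.07 to 0.08 was the narrowest of the 6 genes. In RNA the value was 0.01 ± 0.06 (interval -0.11 to 0.13, adjusted p 0.942).

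The 6 genes spanned a wide range of levels, compared here as TPM, per coding length. The ratio of count to TPM showed that the lengths used were coding lengths, since 85.3% of genes fell on steps of 3 bases within 0.02 of a step. The implied coding lengths were 1422 bases for Cnr1, 3135 for Dagla, 2010 for Daglb, 1191 for Napepld and 1740 for Faah. Of the 6, Mgll fell off the steps, at 943.5 bases, so its length and its level relative to other genes are less certain.

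In RNA, Mgll was the most abundant, at percentile 96.8 of all genes in WT. Cnr1 and Faah came next with overlapping libraries in both genotypes, followed by Dagla, Daglb and Napepld, whose libraries did not overlap one another. In footprints Faah came after Mgll and Cnr1, with 77.8 ± 1.65 TPM in KO and 77.2 ± 2.22 TPM in WT, followed by Dagla. Napepld and Daglb were the lowest and their libraries overlapped in both genotypes. The top place in footprints differed by genotype: Mgll exceeded Cnr1 in 3 of 3 KO libraries, and Cnr1 exceeded Mgll in 4 of 4 WT libraries. Mgll over Cnr1 was 1.07 to 1.16 in KO and 0.885 to 0.943 in WT. Which gene was first therefore rests on the less certain length of Mgll.

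Footprints per RNA set the 6 genes apart more than genotype did. The ratio of footprint TPM to RNA TPM, taken between libraries of the same genotype and replicate number on the assumption that these share a lysate, had a median over all genes of 0.787 in KO and 0.785 in WT. Dagla had 0.247 ± 0.0433 in KO and 0.251 ± 0.0163 in WT, at percentile 4.97 of all genes in KO and 5.74 in WT, so that few mRNAs carried fewer footprints for their level. Daglb, Faah and Mgll were also low. Cnr1, at 0.944 ± 0.129 in KO and 0.939 ± 0.0547 in WT, and Napepld, at 1.16 ± 0.0677 in KO and 1.12 ± 0.0742 in WT, were above the median. Dagla RNA was 108 ± 9.19 TPM in KO and 118 ± 4.85 TPM in WT, far above Napepld RNA which was 19.7 ± 0.760 TPM in KO and 20.7 ± 1.92 TPM in WT, while their footprint levels were close.

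The ratio was 0.369 ± 0.00830 in KO and 0.399 ± 0.0137 in WT for Daglb, and 0.453 ± 0.00588 in KO and 0.423 ± 0.0123 in WT for Mgll. Matching by replicate number stayed an assumption. Deviations from the group mean correlated weakly between RNA and footprint libraries of one number (-0.0413 to 0.163). With libraries matched so, all KO lysates for Daglb (0.362 to 0.378) were below all WT lysates (0.386 to 0.415), as in 7.01% of genes. For Mgll all KO lysates (0.450 to 0.460) were above all WT lysates (0.411 to 0.437), as in 6.58% of genes. Neither passed the edgeR test of TE, with adjusted p of 0.536 for Daglb (-0.12 ± 0.07) and 0.618 for Mgll. Faah had 0.430 ± 0.0254 in KO and 0.432 ± 0.0183 in WT. The other 2-AG hydrolases lay at opposite ends, Abhd6 at 1.80 ± 0.103 in KO and 1.72 ± 0.0348 in WT and Abhd12 at 0.387 ± 0.0353 in KO and 0.373 ± 0.0280 in WT.

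**Figure D3:**
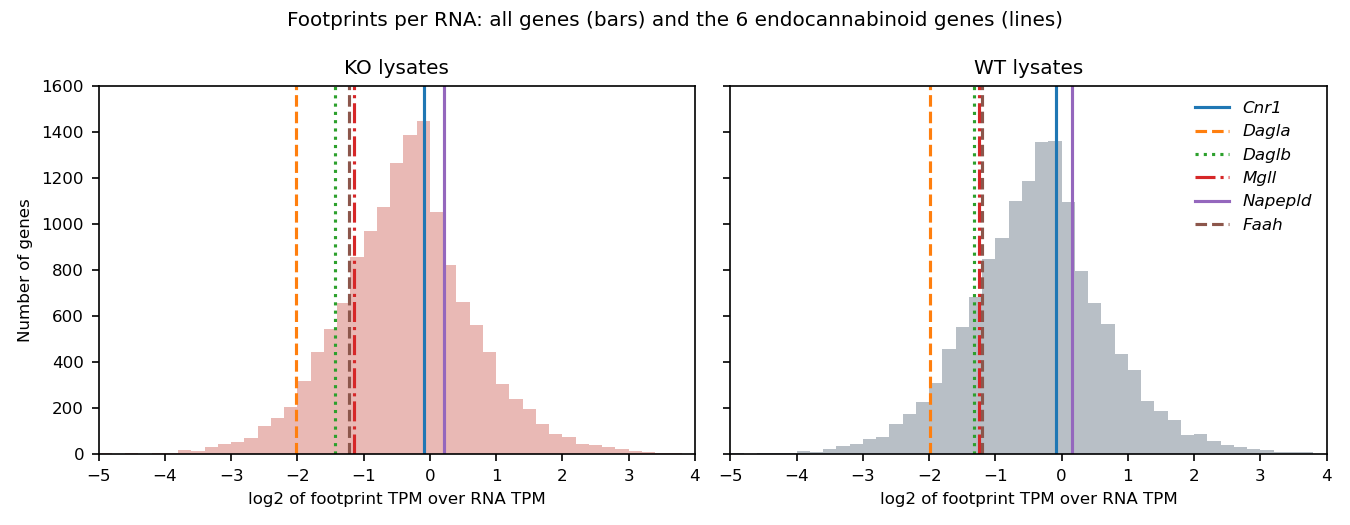
Number of genes by log2 of footprint TPM over RNA TPM, KO lysates left and WT lysates right, with the 6 genes as lines. Dagla lies in the low tail, Daglb, Mgll and Faah lie together below the peak, and Cnr1 and Napepld lie above the median in both genotypes.

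Ratios between 2 genes of the same library need no scaling between libraries. They compare levels of footprints or RNA only, since no lipid, protein or enzyme activity was measured here. The pairs were chosen after the values were seen and carry no test. The share of all gene pairs whose ratio separates the genotypes was not counted. Among single genes 30.7% separated in footprints and 19.1% in RNA. Footprints of Mgll over Dagla, a breakdown gene over a synthesis gene, were 6.83, 6.10 and 7.29 in KO. In WT they were 5.88, 5.44, 5.22 and 5.42, and the groups did not overlap. In RNA the same ratio was 3.48, 3.93 and 3.49 in KO, against 3.31, 3.24, 3.40 and 3.06 in WT, again without overlap.

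Footprints of Mgll over Cnr1 were 1.16, 1.07 and 1.10 in KO, against 0.885, 0.938, 0.901 and 0.943 in WT. The KO mean was 1.21 times the WT mean, with the 2 sides of the ratio moving in opposite directions. These groups had to separate, since each gene alone already separated them. In RNA the ratio averaged 2.30 ± 0.203 in KO and 2.04 ± 0.123 in WT and the groups overlapped. The anandamide pair, Faah over Napepld, had 3.42 ± 0.161 in KO and 3.36 ± 0.165 in WT footprints. The α form over the β form of the lipase, Dagla over Daglb, had 1.21 ± 0.106 in KO and 1.30 ± 0.0546 in WT footprints, which overlapped, and 1.82 ± 0.112 in KO and 2.07 ± 0.0826 in WT RNA, which did not.

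**Figure D4:**
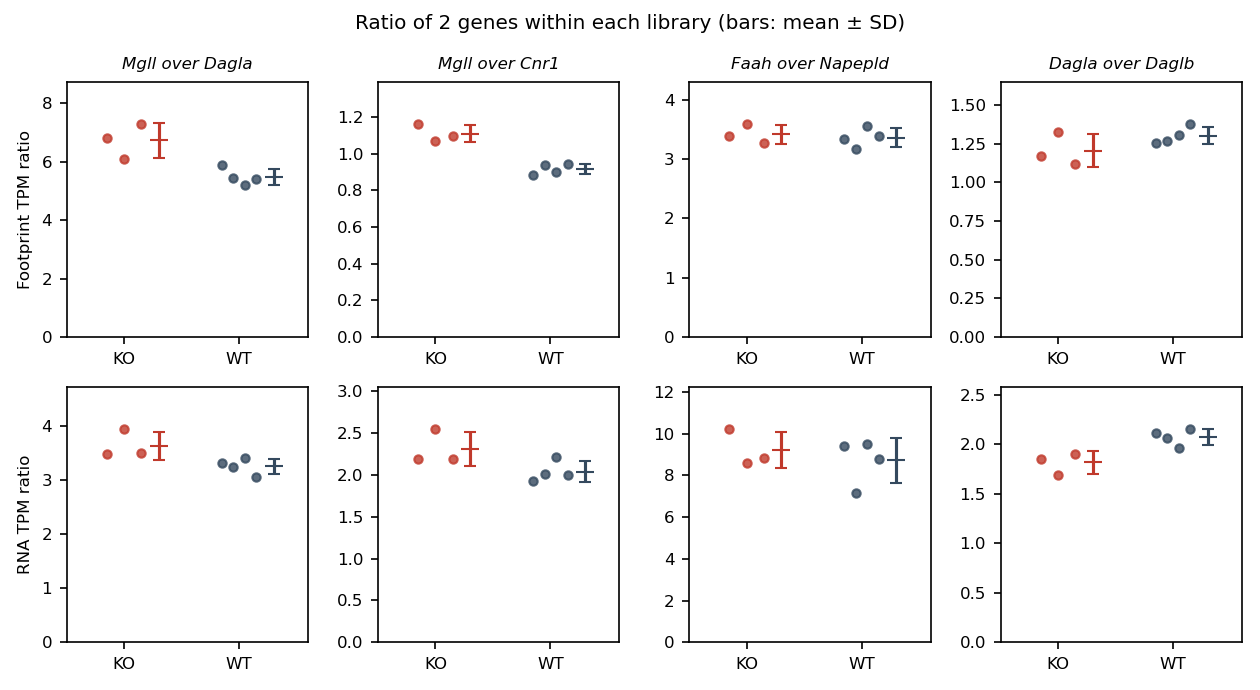
Ratio of the TPM of 2 genes within each library, footprints in the top row and RNA in the bottom row, KO (red) left of WT (blue), with mean and SD. KO libraries lie above WT libraries for Mgll over Dagla in both rows and for Mgll over Cnr1 in footprints, while Faah over Napepld overlaps.

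The genes with the most similar profile were found by distance between log2(TPM + 1) values over the 14 libraries, after each gene's mean was subtracted, among 10342 genes. For Cnr1 they were Col19a1 (distance 0.189) and Pcdh17 (0.194), against a median distance of 1.41. For Dagla they were Mgat5b (0.211) and Speg (0.264), and for Daglb Adcy9 (0.127) and Tm9sf1 (0.175). For Mgll they were BC030336 (0.158) and Prkaca (0.172), for Napepld Etfb (0.178) and Tmed2 (0.183), and for Faah Gps1 (0.128) and Arfgef2 (0.151). The distance covers both assays, so it largely reflects the ratio of footprints to RNA. Its median was 3.17 for Dagla, with a WT ratio of 0.251, and 1.41 for Cnr1, with a WT ratio of 0.939. A shared difference between KO and WT was not tested.

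Beyond the 6 genes, 44 others of the pathway were listed, with earlier results of these data known, and 37 were in the tables. The 7 not analysed here were Cnr2, Gpr18, Gpr119, Trpv1, Ces1d, Gdpd3 and Plaat5. In footprints 5 of the 37 were higher and 5 were lower by edgeR, with a median log2 fold change of 0.02, against the 8.15% and 10.4% of all genes. In RNA 1 was higher and 2 were lower, where 2.11% and 2.77% of all genes were. In the test of TE edgeR called 0 of 37, where 0.0346% of all genes were called. Of the 37, 7 had an unadjusted p under 0.05, and DESeq2 and limma called 0.

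Of 10 genes upstream of 2-AG synthesis, Gq-coupled receptors to phospholipase C, 3 were lower and 1 was higher in footprints, where 10.4% and 8.15% of all genes were. Grm5, encoding the receptor mGluR5 that drives Dagla at the postsynaptic site, had footprints of 96.4 to 101 TPM in KO and 116 to 120 TPM in WT. Its log2 fold change was -0.27 ± 0.03 (adjusted p 0.000618). Chrm3, a muscarinic receptor, had 28.8 to 30.4 TPM in KO and 32.8 to 34.0 TPM in WT (-0.20 ± 0.04, adjusted p 0.00536). Neither Grm5 nor Chrm3 overlapped between genotypes, with all KO below all WT as in 15.6% of all genes. Both calls held under all 17 alternatives.

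Gnaq, the G protein α subunit that these receptors use, was higher instead, with 206 to 209 TPM in KO and 185 to 193 TPM in WT footprints (0.14 ± 0.03, adjusted p 0.0163), a call lost without KO replicate 3 (0.0666). The other 6 of the 10 genes did not pass in footprints. In RNA Chrm1, the main hippocampal muscarinic receptor, was lower, with 252 to 279 TPM in KO and 306 to 324 TPM in WT (-0.25 ± 0.05, adjusted p 0.0170). That call was lost without KO replicate 2 (0.0726) or WT replicate 1 (0.0509).

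Among other enzymes that break down or oxidise endocannabinoids, 2 of 5 were lower and 1 was higher in footprints. Of all genes 10.4% were lower and 8.15% higher. Ptgs2, encoding the cyclooxygenase COX-2, had footprints of 43.2 to 51.7 TPM in KO and 53.8 to 59.9 TPM in WT (-0.30 ± 0.06, adjusted p 0.00575). Ptgs2 was also lower in RNA, with 22.9 to 29.9 TPM in KO and 32.5 to 35.6 TPM in WT (-0.35 ± 0.08, adjusted p 0.0203), a call lost without KO replicate 2 (0.0726). Naaa, a lysosomal hydrolase of N-acylethanolamines that is high in macrophages, had 38.9 to 44.7 TPM in KO and 49.3 to 53.7 TPM in WT footprints (-0.29 ± 0.06, adjusted p 0.00631). It fell with the microglial markers described with Daglb, and their part in its value was not tested. Ddhd2, a brain lipase, was higher, with 34.5 to 38.2 TPM in KO and 30.5 to 32.5 TPM in WT (0.22 ± 0.04, adjusted p 0.00448). Abhd6 and Abhd12, which share 2-AG hydrolysis with Mgll, did not pass, at -0.06 ± 0.04 and -0.05 ± 0.05.

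The receptor partners gave 1 call of 4 in footprints, where 18.5% of all genes were called in either direction. Cnrip1, a small protein that binds the CB1 tail, had footprints of 176 to 190 TPM in KO and 157 to 168 TPM in WT (0.17 ± 0.04, adjusted p 0.00850), so that receptor and partner differed from WT in opposite directions. Sgip1, another CB1-binding protein, did not pass at -0.06 ± 0.04. Of 7 Gi/o proteins and arrestins 1 passed, again against 18.5% of all genes. Arrb2, encoding β-arrestin 2, had footprints of 28.6 to 32.6 TPM in KO and 25.1 to 27.5 TPM in WT (0.22 ± 0.05, edgeR adjusted p 0.0126). That call was lost without KO replicate 3 (0.0530).

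Of 4 intracellular lipid carriers 1 was higher in each assay, where 8.15% of all genes were in footprints and 2.11% in RNA. This was Fabp7, the brain-type fatty acid-binding protein of astrocytes and radial glia. Its footprints were 238 to 261 TPM in KO and 189 to 217 TPM in WT (0.26 ± 0.05, adjusted p 0.00595). Its RNA was 48.6 to 54.2 TPM in KO and 31.7 to 39.5 TPM in WT (0.54 ± 0.10, edgeR adjusted p 0.00999). DESeq2 gave no adjusted p for Fabp7 RNA, and the call held in the other 16 alternatives. Of 7 other enzymes of N-acylethanolamine synthesis edgeR called 0 in footprints, where 18.5% of all genes were called. Of these 7 enzymes 1 had an unadjusted p under 0.05, and DESeq2 and limma called 0, as for Napepld itself.

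**Figure D5:**
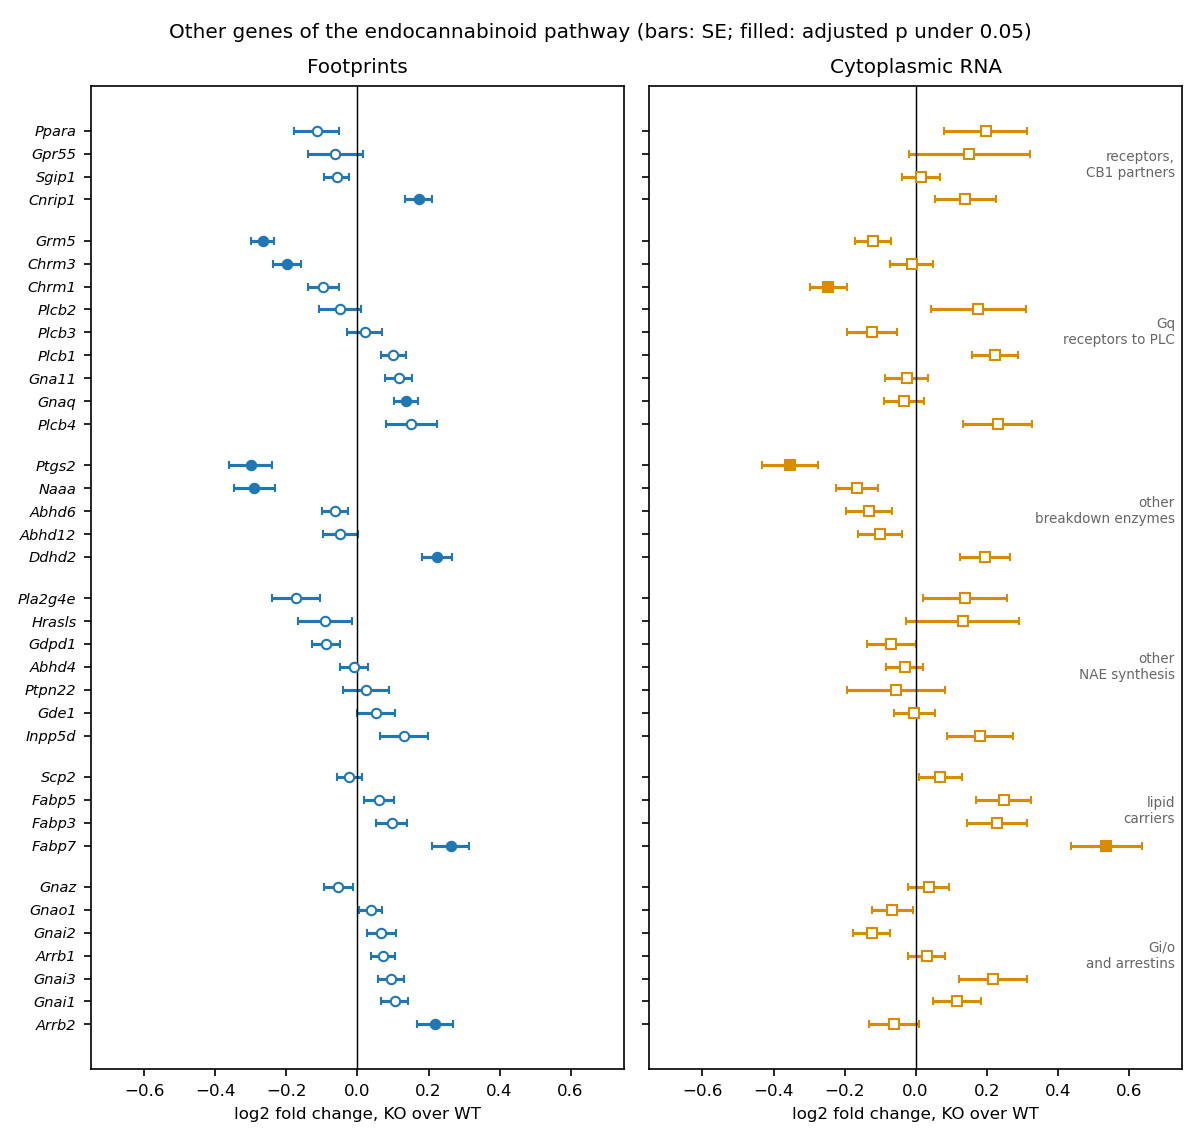
Log2 fold change, KO over WT, of other pathway genes in footprints (left) and cytoplasmic RNA (right), with SE as bars; filled symbols had an adjusted p under 0.05 by edgeR. In footprints 5 genes are filled above 0 and 4 below, and in RNA Fabp7 is filled above 0 and Chrm1 and Ptgs2 below.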

How the data were processed

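Per the submitters' processing notes, cutadapt 1.7.1, Trimmomatic 0.32, Bowtie2 2.1.0, TopHat2 2.0.9, SAMtools 0.0.19, bedtools, RSEM 1.2.11 and the mm10 build were used. The authors deposited RSEM estimated counts and TPM for 14459 genes. Of 19 labelled samples, 14 have columns in the tables and 5 are not analysed here. Footprint columns were matched to samples by genotype and replicate number. Estimated counts were rounded and tested with edgeR 4.0.16 in R 4.3.3 (filterByExpr, minimum count 10, TMM, robust quasi-likelihood, Benjamini-Hochberg over all genes); TE was tested as the assay-by-genotype term of a fit to all 14 libraries, which had no lysate term. SE and intervals come from the same fits. Alternatives used DESeq2 1.42.0, limma 3.58.1, other scalings and filters, a length trend, blocks and left-out libraries. Coordinates are RefSeq GRCm38, of which mm10 is the UCSC name, and 13729 symbols matched directly. The edgeR fits were tested on simulated counts drawn independently for each library. These lacked the small replicate contrast, so they do not bear on whether p-values are too small. The members and lists were chosen with earlier results of these data known. Named genes are the 6 members, Fmr1, called list members (up to 4 per list), Abhd6, Abhd12 and the nearest profiles. Of these, 1 list gene that the rule names is counted but not reported or drawn here. Sgip1 and the marker genes were added after their values were seen.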

Additional observations from a re-analysis of the deposited data

Results flagged for a closer look

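Of 18 groups of 4 WT values checked for a library far from the rest, 1 was marked: Dagla footprints in WT, where replicate 1 had 26.5 TPM and the others 30.1 to 30.8 TPM. The gap to the nearest library over the whole range was 0.855, above Dixon's critical value. Chance marks about 1 group in 20. Without WT replicate 1 the Dagla log2 fold change, KO over WT, was -0.22 with an edgeR adjusted p of 0.0253, against -0.17 and 0.0845 with it.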

How the results depend on the processing

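Over 17 alternatives per comparison no called value of the 6 genes changed direction. Cnr1 footprints kept their call in 16 (log2 fold change -0.18 to -0.11) and lost it with the replicate block (adjusted p 0.0542). Mgll footprints kept theirs in 11, the block giving 0.0735, and Dagla footprints gained one in 4. In RNA and TE 0 calls appeared, with no DESeq2 adjusted p for Napepld RNA. Counts of all genes moved more. The replicate block gave 429 higher and 875 lower in footprints, 73 and 131 in RNA, and 2 and 3 in TE. Whether the numbers pair KO with WT is not settled here. Deviations of KO and WT libraries of one number had correlations of -0.112, -0.0015 and -0.443 in footprints. These cannot decide it, because the small replicate contrast spans both genotypes and by itself pushes such correlations below 0. The block also ended the footprint calls of Cnrip1 (0.0614) and Gnaq (0.0739) and the RNA call of Ptgs2 (0.0579). The replicate contrast as a covariate, chosen after seeing the data, gave 151 and 211 in RNA. In TE, DESeq2 gave 52 and 38, limma 39 and 31 (pseudocount 1) or 40 and 30 (0.1), a minimum of 10 TPM 29 and 14, and a length trend 13 and 9. With 1 library left out, footprints gave 719 to 1086 higher and 1051 to 1303 lower, the lowest count of higher genes without WT replicate 4, and RNA gave 94 to 352 and 122 to 520. Without 1 lysate TE gave 1 to 57 and 1 to 11, the highest without KO replicate 3. The causes were not tested. With CPM in place of TPM the footprint to RNA ratios in KO were 1.16 for Cnr1, 0.303 for Dagla, 0.453 for Daglb, 0.556 for Mgll, 1.42 for Napepld and 0.528 for Faah, and in WT 1.16 for Cnr1, 0.309 for Dagla, 0.491 for Daglb, 0.521 for Mgll, 1.38 for Napepld and 0.532 for Faah; their order was as with TPM. RNA depth limits Napepld most.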
